A study of Mus musculus with 18 samples.

Results

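The genes of CD94, the NKG2 receptors and their closest relatives encode lectin-like receptors best known from natural killer (NK) cells. The 8 genes described here are Klrd1, Klrc1, Klrc2, Klrc3, Klrk1, Klre1, Klri1 and Klri2, chosen by symbol, and all 8 were among the 15582 genes with at least 1 read. RNA-seq was done on thymic invariant natural killer T (iNKT) cells, a lineage of T cells that use their T cell receptor (TCR) to bind lipids held by CD1d. The NKT1, NKT2 and NKT17 subsets were sorted from WT and from SKG mice, giving 6 groups of 3 libraries, 18 libraries in all. Both genotypes had the BALB/c background, and the SKG mice carried the spontaneous SH2-domain mutation of Zap70, whose product is a kinase downstream of the TCR, which leaves a protein with reduced function. Both lines came from a cross of SKG with BALB/cJ mice and were afterwards bred apart. All sorted cells bound the CD1d tetramer. NKT1 cells were taken as ICOS low and CD49a+. NKT2 cells were taken as CD49 negative, ICOS high, CD4 high and TCR beta high without Sdc-1. NKT17 cells were taken as CD49 negative, ICOS high and Sdc-1+. Age, sex and the number of mice behind a library were not given in the sources used here, and the p-values measure the spread between these libraries, which may be partly technical.

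Klrd1 encodes CD94, which has little signalling capacity of its own and pairs with NKG2A (Klrc1), NKG2C (Klrc2) or NKG2E (Klrc3). In the mouse these pairs recognise Qa-1, the product of H2-T23, loaded with a peptide from other class I molecules. NKG2A carries inhibitory tyrosine motifs (ITIMs) that recruit the phosphatase SHP-1 (Ptpn6), whereas NKG2C and NKG2E associate with adaptors that carry activating motifs. NKG2D (Klrk1) stands apart: it forms homodimers, binds stress-induced proteins of the Raet1, H60 and Ulbp1 families, and signals through DAP10 (Hcst) and, for one of its mouse isoforms, DAP12 (Tyrobp). KLRE1 pairs with KLRI1 or KLRI2, and the first pair inhibits while the second activates. NKT1 cells are the iNKT subset that shares most with NK cells.

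The 8 genes lay side by side on chromosome 6, within 162.6 kb (6:129527911-129690502, build NCBIM37) that held 10 annotated genes. In order of position they were Klre1 (129527911 to 129535842, plus strand), Klrd1 (129541800 to 129548793, plus strand), Klrk1 (129560341 to 129573882, minus strand), Klrc3 (129588711 to 129593355, minus strand), Klrc2 (129597514 to 129610707, minus strand), Klrc1 (129616033 to 129628991, minus strand), Klri1 (129647236 to 129667150, minus strand) and Klri2 (129679059 to 129690502, minus strand). None overlapped another annotated gene. All are protein-coding.

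The 3 Klrc genes are close copies, which bears on every count given for them. The first 120 coding bases of their transcripts are shown because this is the stretch that encodes the start of the cytoplasmic tail, where NKG2A differs from its activating partners. Capitals mark bases of Klrc2 and Klrc3 that differ from Klrc1 in a gapped alignment of the coding sequences.
Klrc1: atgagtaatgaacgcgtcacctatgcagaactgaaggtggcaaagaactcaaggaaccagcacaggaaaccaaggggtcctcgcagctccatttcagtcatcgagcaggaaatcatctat
Klrc2: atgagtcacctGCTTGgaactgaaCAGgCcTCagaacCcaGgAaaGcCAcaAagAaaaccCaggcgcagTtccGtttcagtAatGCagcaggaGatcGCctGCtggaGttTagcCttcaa
Klrc3: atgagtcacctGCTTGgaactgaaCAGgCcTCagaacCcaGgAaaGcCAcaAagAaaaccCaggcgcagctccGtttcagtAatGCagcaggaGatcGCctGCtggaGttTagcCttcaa
Klrc2 had 33 differing bases in this stretch and Klrc3 had 32. Klrc1 bases that the alignment skips by a gap in Klrc2 or Klrc3 are neither marked nor counted, so these counts leave such differences out. Over the whole coding sequence Klrc2 and Klrc3 were 96.4% identical, Klrc1 and Klrc2 85.2%, and Klrc1 and Klrc3 81.9%, while Klri1 and Klri2 were 78.2% identical. The letters of an ITIM occurred in the first 70 encoded residues once for Klrc1 and 2 times for Klri1, and 0 times for the other 6 genes.

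Reads were 50 bases long, so the share of 50-base windows of each gene's transcripts that also occur in another gene was counted. Exact matches were sought in all protein-coding transcripts. Matches with up to 2 mismatches were sought only in those of lectin receptor genes, and noncoding genes were not searched. Within these limits no window of Klrd1, Klrk1 or Klre1 occurred in another gene. For Klrc1, Klrc2 and Klrc3 the share was 38.6%, 30.8% and 39.1% for exact matches, and 70.1%, 52.6% and 73.0% with up to 2 mismatches. For Klri1 and Klri2 it was 5.83% and 1.5%, or 36.6% and 7.48% with mismatches. How reads that fit several genes were treated is not given in the sources used here, so the split of reads between Klrc1, Klrc2 and Klrc3 is uncertain and their sum is firmer than each part.

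Promoters are shown because several of the genes were lower together in the SKG comparison below. RefSeq (build GRCm38.p6) gave 8 promoter windows for 6 of the 8 genes, from 250 bases before to 50 bases after the start. Those of Klre1 (6:129577963-129578262, plus strand), Klrc1 (6:129678924-129679223, minus strand), Klrc3 (6:129643239-129643538, minus strand) and Klrk1 (6:129623815-129624114, minus strand) follow. Capitals mark TGTGGT or its reverse complement, the core letters bound by Runx factors, and in Klre1 also GTGTGA, a T-box half-site.
Klre1: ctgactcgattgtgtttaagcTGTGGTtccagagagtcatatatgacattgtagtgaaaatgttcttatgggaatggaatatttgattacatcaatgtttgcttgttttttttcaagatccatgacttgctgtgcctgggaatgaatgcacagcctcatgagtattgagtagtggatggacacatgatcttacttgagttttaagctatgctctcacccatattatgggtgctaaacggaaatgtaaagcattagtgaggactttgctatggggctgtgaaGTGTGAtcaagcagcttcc
Klrc1: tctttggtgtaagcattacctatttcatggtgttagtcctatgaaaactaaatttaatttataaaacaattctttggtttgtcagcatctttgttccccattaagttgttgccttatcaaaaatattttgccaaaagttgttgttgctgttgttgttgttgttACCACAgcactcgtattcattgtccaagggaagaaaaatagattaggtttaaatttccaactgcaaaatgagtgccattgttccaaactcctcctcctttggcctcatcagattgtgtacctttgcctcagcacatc
Klrc3: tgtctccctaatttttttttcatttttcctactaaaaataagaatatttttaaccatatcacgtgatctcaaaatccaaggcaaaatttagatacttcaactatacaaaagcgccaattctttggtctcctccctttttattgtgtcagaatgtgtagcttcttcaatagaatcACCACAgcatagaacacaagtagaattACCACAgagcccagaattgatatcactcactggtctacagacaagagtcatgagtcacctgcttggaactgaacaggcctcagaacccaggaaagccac
Klrk1: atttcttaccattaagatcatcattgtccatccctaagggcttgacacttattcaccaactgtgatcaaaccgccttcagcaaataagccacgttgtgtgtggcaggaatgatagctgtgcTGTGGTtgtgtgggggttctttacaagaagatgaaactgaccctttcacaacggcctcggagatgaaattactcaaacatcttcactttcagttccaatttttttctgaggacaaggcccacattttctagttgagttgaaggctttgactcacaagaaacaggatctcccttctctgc
Read on both strands, the Runx letters were in 6 of the 8 windows, and in 16.8% of all 32851 promoter windows of the table. Of these 6, 3 are not separate cases, since the 2 Klrc2 windows overlap (identical over 260 bases) and the Klrc3 window is a near copy of them, so the 6 cannot be read against that share. The T-box letters were in 2 windows, both of Klre1 and overlapping each other, and in 14.5% of all windows. The STAT spacing TTCNNNGAA was in 0 of the 8 windows and in 8.30% of all. Matches of different motifs did not overlap in these windows. The Klrc2 window starting at 129660507 was 99.0% identical to that of Klrc3. Such matches describe letters and no binding was measured.

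Depth was 4391029 to 8895917 counts per library. Levels are given as CPM (reads of a gene per 1e6 reads of the library) scaled by the trimmed mean of M values (TMM), and levels of different genes are set against each other only per kilobase of annotated exon. Within each group the 3 libraries differed beyond sampling noise, and all were kept. Markers of the sorted subsets went with the labels: the summed CPM of 7 NKT1 markers was 8767 to 9821 in NKT1 libraries and 174 to 436 elsewhere, that of 6 NKT2 markers was 1568 to 2219 in NKT2 libraries and 467 to 1525 elsewhere, and that of 6 NKT17 markers was 2382 to 2483 in NKT17 libraries and 0.520 to 14.3 elsewhere. These lists include Itga1 (CD49a), Icos and Sdc1, whose products were used in the sort, so the match with the labels follows in part from the gates. In bulk samples like these, fewer cells that carry a transcript and less of it per cell cannot be told apart.

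Each of the 8 genes was higher in NKT1 cells than in NKT2 and NKT17 cells of the same genotype. In WT NKT1 libraries Klrd1 had the highest level per kilobase, 464 ± 89.4 CPM per kb (SD, n = 3). Klrk1 followed at 192 ± 33.2 CPM per kb, with no overlap between the libraries' values. Klre1 (90.4 ± 20.2), Klrc1 (81.9 ± 12.1) and Klrc3 (69.9 ± 15.6 CPM per kb) came next, and each overlapped its neighbour in this order. Klri1 (19.5 ± 11.0) and Klrc2 (10.3 ± 1.81 CPM per kb) also overlapped. Klri2 was lowest at 5.08 ± 1.54 CPM per kb. The annotated exons of Klrc2 cover 5812 bases against 830 for Klrc3, so its low place in this order rests on the annotated length: in reads alone Klrc2 (59.8 ± 10.5 CPM) and Klrc3 (58.0 ± 12.9 CPM) overlapped.

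**Figure D1:**
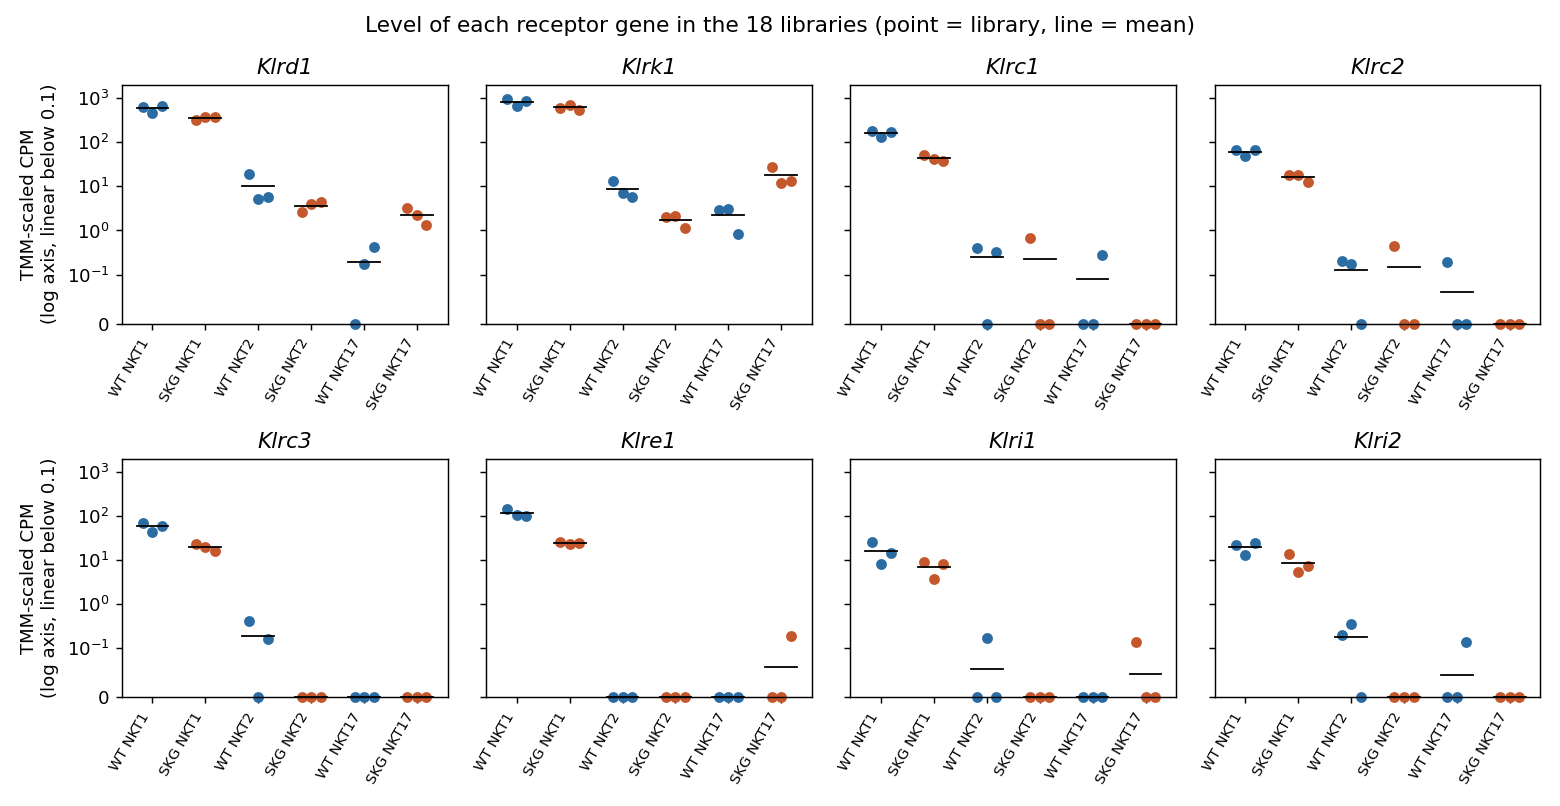
TMM-scaled CPM of each of the 8 genes in every library, on an axis that is logarithmic above 0.1 and linear below. Points are libraries (blue WT, orange SKG) and lines are group means. Every gene is highest in the NKT1 libraries, and most points of the 6 genes other than Klrd1 and Klrk1 lie at or near 0 in NKT2 and NKT17.

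In NKT1 cells of SKG mice, Klre1 and the 3 Klrc genes were lower than in WT, by 2.97 to 4.77-fold, whereas Klrd1 and Klrk1, the most abundant of the group, changed less and were not called. A gene was called when its Benjamini-Hochberg adjusted p in edgeR's quasi-likelihood test was under 0.1 with a fold change of at least 1.5, the thresholds of the study. On these terms 4 of the 8 genes were called lower, where 1.82% of the 11118 genes tested were called lower. The median log2 change of the 8 genes was -1.4, against -0.01 over all genes tested. For 5 of the 8 every SKG library lay below every WT library, as was the case for 8.68% of genes tested. Both the 4 and the 5 include the 3 Klrc genes, which are close copies that may share reads. They are thus not fully separate cases, which limits how these counts can be read against the shares.

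Klre1, the partner of the KLRI chains, fell furthest. The WT NKT1 libraries had 148, 103 and 102 CPM of Klre1 and the SKG NKT1 libraries 26.4, 23.7 and 23.9 CPM. The groups did not overlap, and the SKG values were tightly bunched. The log2 change was -2.26 ± 0.25 (SE), a 4.77-fold lower level, with an edgeR adjusted p of 7.74e-05.

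Among the NKG2 chains, the inhibitory Klrc1 had 178, 135 and 174 CPM in WT NKT1 libraries and 52.2, 41.4 and 38.5 CPM in SKG NKT1 libraries. Its log2 change was -1.88 ± 0.27 (3.69-fold lower, edgeR adjusted p = 0.000356). Both activating chains were lower too. Klrc2 went from 65.2, 47.7 and 66.6 CPM to 17.8, 17.7 and 12.5 CPM (log2 change -1.90 ± 0.35, edgeR adjusted p = 0.00341). Klrc3 went from 70.3, 44.5 and 59.3 CPM to 22.9, 19.4 and 16.5 CPM (log2 change -1.57 ± 0.32, edgeR adjusted p = 0.0123). For each of the 3 the lowest WT library was above the highest SKG library.

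Klrd1, the shared partner of these chains, had 638, 464 and 681 CPM in WT NKT1 libraries and 328, 366 and 379 CPM in SKG NKT1 libraries. The groups did not overlap, but the log2 change of -0.73 ± 0.31 (95% interval -1.4 to -0.06) had an edgeR adjusted p of 0.301. In a fit of the 6 NKT1 libraries alone the change was -0.71 and was called, with an edgeR adjusted p of 0.0192. Klrk1, the homodimeric receptor, had 936, 666 and 887 CPM in WT and 594, 712 and 542 CPM in SKG, so that its groups overlapped. Its log2 change was -0.43 ± 0.29 (95% interval -1.07 to 0.21, edgeR adjusted p = 0.592).

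The KLRI chains, the least abundant of the family in reads, had wide spreads. Klri1 had 26.3, 8.21 and 14.5 CPM in WT and 9.29, 3.75 and 7.97 CPM in SKG, and Klri2 had 22.6, 13.0 and 24.1 CPM in WT and 13.6, 5.42 and 7.45 CPM in SKG. Both pairs of groups overlapped. The log2 changes were -1.22 ± 0.56 for Klri1 and -1.17 ± 0.50 for Klri2, with edgeR adjusted p-values of 0.335 and 0.290. A fall of either gene was thus not shown after adjustment. Their unadjusted edgeR p-values were 0.0411 and 0.0299, and 7 of the 8 genes had an unadjusted p under 0.05 in this comparison.

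**Figure D2:**
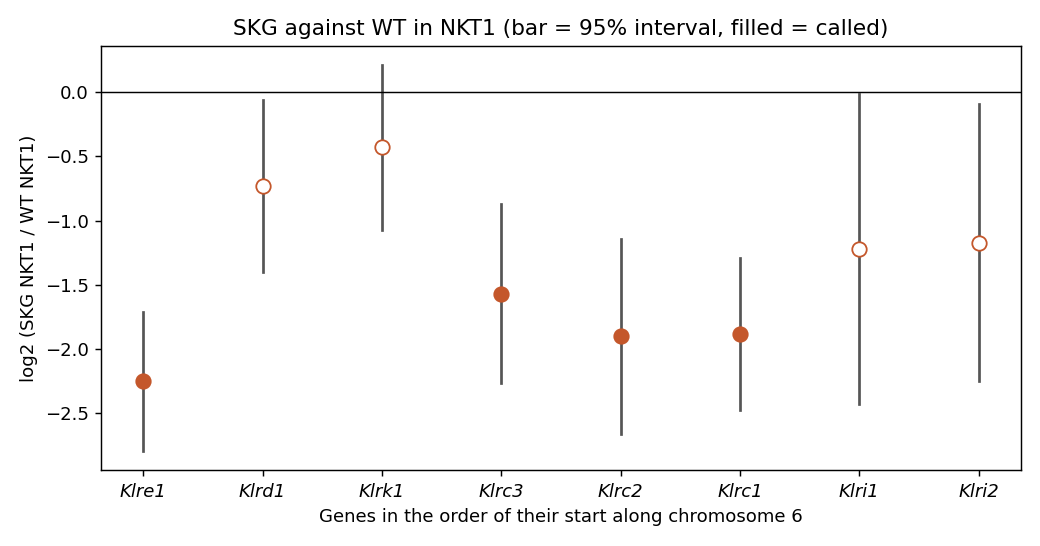
Log2 change of each gene between SKG and WT NKT1 cells, with genes in chromosomal order along the horizontal axis. Bars are 95% intervals, filled points were called. Klre1 and the 3 Klrc genes are called, from -1.57 to -2.26, and Klrd1 and Klrk1, which lie between them on the chromosome, have the smallest changes, -0.73 and -0.43.

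Because reads of one library share its depth and scaling, ratios within a library were also compared; except for the share of Klrc1, these ratios were chosen after the values had been seen. Klrc1, the inhibitory chain, made up 56.8%, 59.4% and 58.1% of all Klrc reads in WT NKT1 libraries and 56.2%, 52.8% and 57.1% in SKG NKT1 libraries. The shares overlapped, and the difference of -2.74 percentage points (55.4 ± 2.26% against 58.1 ± 1.27%, SD, n = 3) had a p of 0.2 in a two-sided exact permutation test. With 3 libraries against 3 the smallest p this test can give is 0.1. A test of this size cannot pass the threshold of under 0.1 used here, so it does not show that the balance of inhibitory and activating chains was alike in the genotypes, and the split of shared reads limits the shares as well.

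The number of Klrc reads for each Klrd1 read was 0.492, 0.489 and 0.441 in WT NKT1 libraries and 0.283, 0.214 and 0.178 in SKG NKT1 libraries, without overlap. The means were 0.474 ± 0.0285 and 0.225 ± 0.0535 (exact permutation p = 0.1, the smallest possible). Klre1 reads per Klrd1 read were 0.232, 0.222 and 0.15 in WT and 0.0804, 0.0648 and 0.0631 in SKG (exact permutation p = 0.1), also without overlap. Klrk1 reads per Klrd1 read were 1.401 ± 0.0865 in WT and 1.73 ± 0.266 in SKG, and these overlapped (exact permutation p = 0.3). Over the 5 ratios computed, the Benjamini-Hochberg adjusted values of these exact tests ran from 0.25 to 1. Thus each SKG NKT1 library had fewer Klrc and Klre1 reads relative to Klrd1 reads than any WT one. None of these exact tests can give a p under 0.1 at this number of libraries.

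**Figure D3:**
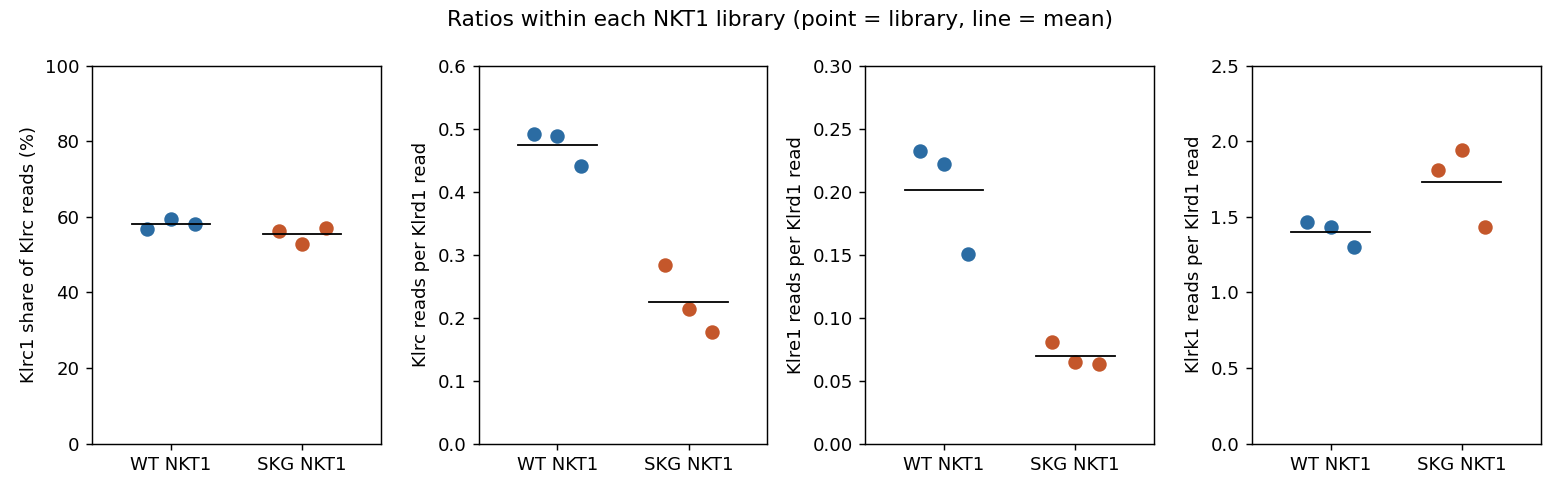
Ratios of reads within each NKT1 library: the Klrc1 share of Klrc1, Klrc2 and Klrc3 reads in percent, and the Klrc, Klre1 and Klrk1 reads per Klrd1 read, with axes from 0. Points are libraries and lines are group means. The Klrc1 share stays between 52.8% and 59.4%, while the Klrc and Klre1 ratios of the 3 SKG libraries all lie below those of the WT libraries.

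Some genes that mark NK cells were lower in the same comparison. Of 8 NK cell markers 5 were tested in SKG against WT NKT1 cells, and 2 were called lower. Ncr1, which encodes the receptor NKp46, went from 134 ± 48.2 to 31.0 ± 8.67 CPM (log2 change -2.11, edgeR adjusted p = 0.000398), and Irf8, a transcription factor, from 73.0 ± 2.79 to 31.8 ± 5.72 CPM (log2 change -1.20, edgeR adjusted p = 0.0165). The other 3 tested were not called. Itga2, an integrin chain, had 7.03 ± 0.401 CPM in WT and 12.7 ± 3.59 CPM in SKG, with every SKG library above every WT library (log2 change 0.85, edgeR adjusted p = 0.647). Prf1 (perforin) had 254 ± 5.08 and 202 ± 27.5 CPM, and Gzma, a granzyme, 786 ± 317 and 568 ± 217 CPM. The summed level of the 8 markers was 978 to 1675 CPM in WT and 684 to 1087 CPM in SKG NKT1 libraries. Cma1 had 0 reads in both groups, S1pr5 had 18 reads in WT and 0 in SKG, and Eomes had 58 reads in WT and 5 in SKG. The part of these markers in the lower Klrc and Klre1 levels was not tested. The 7 NKT1 markers, among them Tbx21, summed to 8801 to 9821 CPM in WT and 8767 to 9209 CPM in SKG; 1 of the 7, the chemokine gene Ccl5, was called, and it was higher in SKG (1278 ± 101 against 452 ± 181 CPM). Tbx21 had 548 ± 24.6 CPM in WT and 480 ± 82.6 CPM in SKG, and was not called. Of 6 NKT2 markers 2 were called, Il4 higher (47.5 against 15.3 CPM) and Plac8 lower (0.814 against 4.65 CPM), and edgeR called 0 of 6 NKT17 markers (0 by DESeq2, and 0 at an unadjusted p under 0.05).

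Other lectin receptors of the NK gene complex were among the called genes as well: of 29 listed genes 22 had reads and 16 were tested, and 8 of them were called lower, with a median log2 change of -1.11 against -0.01 over all genes tested. By size of change, Klra7 went from 188 ± 59.8 to 11.1 ± 0.779 CPM, Klra1 from 394 ± 44.0 to 57.0 ± 8.02 CPM, Klra5 from 758 ± 122 to 221 ± 29.3 CPM, and Klrb1f from 75.9 ± 6.95 to 23.05 ± 5.84 CPM. The edgeR adjusted p-values of these 4 ran from 7.81e-07 to 0.000874. The Klra (Ly49) genes are a family of close copies, so reads may be shared among them too.

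Among the listed adaptors, phosphatases, kinases and ligands, 1 was called lower in SKG NKT1 cells, Fcer1g. It and Cd247 are on the list of adaptors and ITAM chains. They were not among the partners named above for CD94, the NKG2 receptors and KLRE1, and partners of other receptors were not considered. Hcst (DAP10), the adaptor of NKG2D, had 405 ± 72.2 CPM in WT and 476 ± 69.3 CPM in SKG and was not called. Tyrobp (DAP12) had 87.5 ± 34.2 and 48.7 ± 6.07 CPM, a log2 change of -0.85 ± 0.28 with an edgeR adjusted p of 0.133. Of the 4 adaptors and ITAM chains 1 was called lower, Fcer1g (Fc receptor gamma chain), from 400 ± 126 to 194 ± 21.1 CPM with an edgeR adjusted p of 0.0990, and DESeq2 called 0 of the 4. Ptpn6, the phosphatase that ITIMs recruit, had 1594 ± 206 and 1504 ± 365 CPM. Of the 3 ITIM phosphatases edgeR and DESeq2 called 0, and 0 had an unadjusted p under 0.05. Of 15 kinases and relay proteins tested 1 was called, Pik3cd (a PI3-kinase subunit), which was higher in SKG (452 ± 19.4 against 299 ± 20.5 CPM, edgeR adjusted p = 0.00169). DESeq2 called 3 of the 15, and 7 had an unadjusted p under 0.05 in edgeR. H2-T23, the gene of Qa-1, had 285 ± 72.7 CPM in WT and 218 ± 31.4 CPM in SKG, and of 4 ligand genes tested edgeR and DESeq2 called 0, with 0 at an unadjusted p under 0.05. Few reads were counted for the NKG2D ligands. H60b had 7.47 ± 1.93 CPM and Ulbp1 6.96 ± 4.90 CPM in WT NKT1, and Raet1b, Raet1c, Raet1d and Raet1e had 0 reads in every group. Whether the reference used for counting fits these genes in BALB/c mice was not tested. Of 14 cytokine receptors and factors of the NK program edgeR and DESeq2 called 0 in this comparison, and 1, Il2rb, had an unadjusted p under 0.05.

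Between subsets, NKT1 libraries were higher for all 8 genes in both genotypes. Since most of the genes passed the filter on low counts only through their NKT1 libraries, the count of 8 of 8 follows in part from that filter and is given as a description. The shares of all tested genes called higher were 13.7% for NKT1 against NKT2 in WT, 11.2% for NKT1 against NKT17 in WT, 10% for NKT1 against NKT2 in SKG and 10.2% for NKT1 against NKT17 in SKG. Klre1 was the cleanest case. It had 2344 reads over the 3 WT NKT1 libraries, 394 over the SKG NKT1 libraries, and 1 read in the 12 libraries of the other subsets. In WT NKT2 its 0 reads allow a level of up to 0.179 CPM (3 reads over the 3 libraries, counting error only), so that the 2344 reads pooled over the WT NKT1 libraries, set against the pooled library sizes, were at a level at least 685-fold higher. Klrc1 had 3168 reads in WT NKT1 libraries against 4 in WT NKT2 and 2 in WT NKT17, and 702 reads in SKG NKT1 against 3 and 0. Klrc2, Klrc3, Klri1 and Klri2 had 0 to 3 reads per group outside NKT1.

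Klrd1 and Klrk1 were the exceptions, with measurable levels outside NKT1 that differed between genotypes. In WT, Klrd1 had 10.1 ± 7.90 CPM in NKT2 and 0.195 ± 0.207 CPM in NKT17, and Klrk1 had 8.70 ± 4.04 and 2.29 ± 1.28 CPM. Both were called lower in NKT17 than in NKT2 in WT (log2 changes -5.35 ± 0.78 and -1.96 ± 0.51, edgeR adjusted p = 0.000138 and 0.0128). The Klrd1 change was -4.53 without WT NKT2 replicate 1 and -6.44 without WT NKT17 replicate 3. They were the only 2 of the 8 called in this comparison, in which 20% of genes tested were called. In SKG the order was turned for Klrk1, which was called higher in NKT17 than in NKT2 (log2 change 3.38 ± 0.50, edgeR adjusted p = 0.000185), while Klrd1 was not called (-0.65 ± 0.58). This 1 call of 8 stands beside 18.8% of genes tested.

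In NKT2 cells, Klrd1 and Klrk1 were lower in SKG than in WT mice. They were 2 of 8 genes called lower, where 4.05% of genes tested were. Klrk1 had 13.3, 7.17 and 5.66 CPM in WT NKT2 libraries and 1.98, 2.15 and 1.12 CPM in SKG NKT2 libraries. The groups did not overlap, and the log2 change was -2.31 ± 0.55 (edgeR adjusted p = 0.0190). Klrd1 had 19.2, 5.24 and 5.82 CPM in WT and 2.64, 3.92 and 4.34 CPM in SKG, with 1 WT library far above the others. Its log2 change of -1.41 ± 0.48 had an edgeR adjusted p of 0.0966. Without WT NKT2 replicate 1, the high library, the change was -0.58 with an adjusted p of 0.292. Without SKG NKT2 replicates 1, 2 or 3 the call was lost too (adjusted p of 0.238, 0.198 and 0.171), although the change stayed near its size with all libraries (-1.24, -1.44 and -1.57).

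NKT1 markers were present at a low level in these NKT2 libraries, with a summed CPM of 307 to 436 in WT and 216 to 338 in SKG. Of the 7, 1 was called lower in SKG, Il2rb. Tbx21 had 28.2 ± 14.3 and 17.3 ± 6.22 CPM, Nkg7 22.4 ± 9.63 and 19.1 ± 19.1 CPM, and Itga1 had 11 reads in WT and 2 in SKG. Itga1 encodes CD49a, and NKT2 cells were sorted as CD49 negative, so few Itga1 reads follow in part from the gate. The part of these markers in the levels of Klrd1 and Klrk1 was not tested. The Klrd1 reads of NKT2 libraries came with few Klrc reads. WT NKT2 had 160 Klrd1 and 9 Klrc reads, a pooled ratio of 0.0563 Klrc reads per Klrd1 read, against 0.474 in WT NKT1. SKG NKT2 had 59 Klrd1 and 5 Klrc reads, a ratio of 0.0847, against 0.222 in SKG NKT1. The cause of these proportions was not tested.

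In NKT17 cells the same 2 genes were higher in SKG than in WT mice. They were 2 of 8 genes called higher, where 3.83% of genes tested were. Klrk1 had 2.93, 3.13 and 0.823 CPM in WT NKT17 libraries and 27.6, 12.2 and 13.3 CPM in SKG NKT17 libraries. Every SKG library was above every WT library. The log2 change was 3.03 ± 0.47, an 8.17-fold higher level (edgeR adjusted p = 0.000886). Klrd1 had 0, 0.174 and 0.412 CPM in WT and 3.26, 2.27 and 1.31 CPM in SKG, from 4 and 43 reads in all. Its log2 change was 3.30 ± 1.01 (95% interval 1.11 to 5.49, edgeR adjusted p = 0.0594). That call was lost without WT NKT17 replicate 1 or 2 (adjusted p of 0.166 and 0.135) and without SKG NKT17 replicate 1 or 2 (0.203 and 0.105), with a log2 change of 2.85 or more each time. Without WT NKT17 replicate 3 the change was 4.39 and was called.

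**Figure D4:**
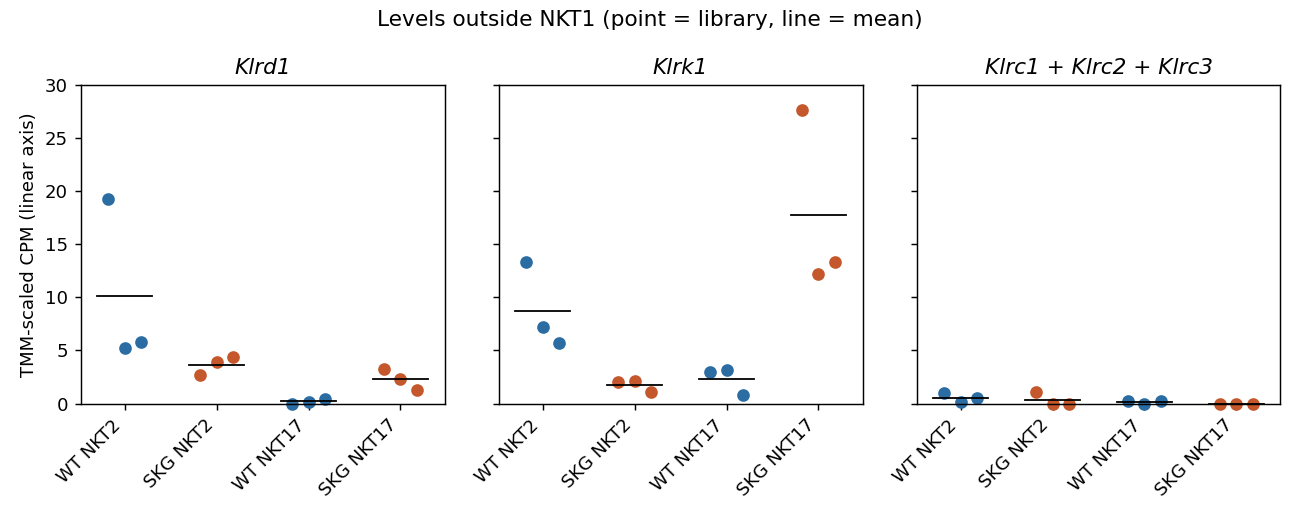
TMM-scaled CPM of Klrd1, of Klrk1 and of the 3 Klrc genes summed, in every NKT2 and NKT17 library, on a linear axis from 0. Points are libraries and lines are group means. SKG is below WT in NKT2 and above WT in NKT17 for Klrd1 and Klrk1, and the Klrc sum is near 0 throughout.

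Klrk1 and Klrd1 reads of SKG NKT17 libraries were in other proportions than those of SKG NKT1 libraries. Klrk1 reads outnumbered Klrd1 reads 7.81 to 1 over the 3 SKG NKT17 libraries, and 5.38 to 10.1 to 1 within single libraries, against 1.71 to 1 in SKG NKT1. In WT the pooled ratio was 9.75 to 1 in NKT17, from only 39 Klrk1 and 4 Klrd1 reads, against 1.41 to 1 in NKT1. WT NKT17 replicate 3 had 6 Klrk1 and 3 Klrd1 reads, and replicate 1 had 15 Klrk1 and 0 Klrd1 reads. These reads are too few to fix the WT proportion. The 3 Klrc genes had 0 reads in SKG NKT17, beside 43 Klrd1 reads, and Klre1 and Klri1 had 1 read each. In SKG NKT1 there were 0.222 Klrc reads per Klrd1 read. These are pooled counts, and the cause of the proportions was not tested. Of the 7 NKT1 markers, Tbx21 had 16 reads in WT and 27 in SKG NKT17, Ifng 2 and 1, and Itga1 2 and 1. NKT17 cells too were sorted as CD49 negative, which bears on Itga1. Ccl5 had 3 and 23 reads, without overlap of the groups, and Cxcr3 had 34 and 112 reads (1.88 ± 1.71 and 5.88 ± 3.29 CPM), with overlap. Neither was called (edgeR adjusted p = 0.211 and 0.131). The median log2 change of the 7 was 0.73, against 0.0045 over all genes tested, and edgeR called 2 of the 7 where DESeq2 called 4. Their summed level was 285 to 326 CPM in WT and 174 to 260 CPM in SKG NKT17, mostly from Il2rb. By edgeR, Nkg7 was called higher (2.48 ± 1.17 to 25.2 ± 14.3 CPM, edgeR adjusted p = 0.0138) and Il2rb lower. Of the NK cell markers Ncr1 had 1 read in WT and 0 in SKG, Prf1 was called higher (4.75 ± 3.51 to 27.2 ± 7.71 CPM, edgeR adjusted p = 0.000285) and Irf8 lower, and their summed levels overlapped (24.9 to 39.7 CPM in WT, 26.3 to 41.1 CPM in SKG). Nkg7 and Prf1 are named here after their values had been seen.

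Markers of other cells were also higher in SKG NKT17 libraries. The summed CPM of 6 CD8 and double-positive thymocyte markers was 27.5 to 37.2 in WT and 51.5 to 83.3 in SKG NKT17, with Rag1, Rag2 and Dntt at 0 in both. Cd79b, which encodes a chain of the B cell receptor complex, was at 9.20 ± 1.44 CPM in WT and 34.6 ± 8.67 CPM in SKG NKT17 (SD, n = 3 each; log2 difference 1.91, SE 0.40, edgeR adjusted p = 0.00264). Their part in the Klrk1 and Klrd1 levels was not tested. Myeloid markers summed to at most 4.39 CPM in either group. Of the adaptors, Hcst was called higher in SKG NKT17 (277 ± 51.9 against 175 ± 39.7 CPM, log2 change 0.66, edgeR adjusted p = 0.0197), although its libraries overlapped, and Tyrobp had 1 read in WT and 3 in SKG. Ptpn6 was called lower (517 ± 87.5 against 807 ± 86.6 CPM, edgeR adjusted p = 0.0175).

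The difference of the SKG effect between subsets was tested directly. Between NKT17 and NKT1, and between NKT17 and NKT2, 2 of the 8 genes were called, Klrk1 and Klrd1, where 4.17% and 2.19% of genes tested were called. For Klrk1 the log2 differences were 3.46 ± 0.56 (edgeR adjusted p = 0.00399) and 5.34 ± 0.72 (edgeR adjusted p = 0.00143). Those of Klrd1 were 4.03 ± 1.04 and 4.71 ± 1.10, with edgeR adjusted p-values of 0.0583 and 0.0544. Between NKT2 and NKT1 edgeR called 0 of the 8, where 3.87% of genes tested were called; 1 had an unadjusted p under 0.05, Klrk1 (log2 difference -1.88 ± 0.64, adjusted p = 0.171), which DESeq2 called (-1.91, adjusted p = 0.0629). The 3 tests share libraries. For the other 6 genes the reads outside NKT1 were too few for such a difference to be read.

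The listed adaptors, phosphatases and ligands had their own distribution over the WT subsets. Of 4 adaptors and ITAM chains 3 were called higher in NKT1 than in either other subset. Fcer1g had 400 ± 126 CPM in NKT1, 1.87 ± 1.02 in NKT2 and 0.357 ± 0.224 in NKT17. Tyrobp followed the receptors, with 87.5 ± 34.2 CPM in NKT1 and 0.586 ± 0.398 CPM in NKT2, and with 1 read over the NKT17 libraries. Hcst was expressed in all subsets, at 405 ± 72.2, 199 ± 24.8 and 175 ± 39.7 CPM. Cd247, the zeta chain of the TCR complex, ran the other way, with 307 ± 18.1 CPM in NKT1, 1652 ± 308 in NKT2 and 854 ± 118 in NKT17. Ptpn6 was the 1 of 3 phosphatases called, higher in NKT1 (1594 ± 206 CPM) than in NKT2 (921 ± 111) and NKT17 (807 ± 86.6), and H2-T23 was the 1 of 4 ligand genes called, at 285 ± 72.7, 174 ± 34.4 and 176 ± 53.4 CPM.

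Against WT NKT2, 4 of 15 kinases and relay proteins were called in WT NKT1, all higher, and against WT NKT17, 2 were higher and 1 lower. Over all genes tested, 27.5% and 24.7% were called in these comparisons, so the kinases and relay proteins were called about as often as other genes or less. Vav3, an exchange factor, was called in both (48.4 ± 17.0 CPM in NKT1, 26.3 ± 5.96 in NKT2, 21.1 ± 3.58 in NKT17), Pik3cd was called against NKT2 (299 ± 20.5 against 175 ± 12.2 CPM), and Lat, an adaptor of the TCR, was lower in NKT1 than in NKT17 (435 ± 26.8 against 784 ± 116 CPM). Of 14 cytokine receptors and factors of the NK program 10 were called higher in NKT1 and 1 lower when set against NKT2, and 6 higher with 1 lower when set against NKT17. They include Stat4 (436 ± 7.27 CPM in NKT1, 1.49 ± 0.834 in NKT2, 31.2 ± 11.0 in NKT17), Il12rb2 of the IL-12 receptor (200 ± 14.3, 1.54 ± 1.46 and 0.0915 ± 0.158 CPM), Tbx21 (548 ± 24.6, 28.2 ± 14.3 and 0.825 ± 0.553 CPM) and Il2rb of the IL-2 and IL-15 receptors (2676 ± 184, 232 ± 21.1 and 298 ± 22.0 CPM).

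Among 9390 genes with a mean of at least 50 reads in their highest group, the log2 CPM of Klrd1 over the 18 libraries was most like that of Ctsw (Pearson r = 0.979), Ppm1j (0.976), Nmnat2 (0.976), Nkg7 (0.976) and Aim1 (0.972). The log2 CPM of Klrk1 was most like that of Ccnd3 (0.973), Gzma (0.968), Rab8a (0.965), Cpne7 (0.964) and Anxa2 (0.958). All these genes share the gap between NKT1 and the other subsets, and the 18 libraries are not independent of their groups. The SKG NKT17 libraries, in which Klrk1 was high, were among the 18 that set this ranking, so the NKT17 levels of these genes are a description only. Ccnd3, a cyclin, had 116 ± 21.8 CPM in WT and 233 ± 19.6 CPM in SKG NKT17, Anxa2, an annexin, 133 ± 27.1 and 261 ± 36.9 CPM, and Rab8a, a small GTPase, 267 ± 28.1 and 315 ± 12.2 CPM. Gzma and Cpne7 were under 1 CPM on average in both groups.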

How the data were processed

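RNA-seq counts of 18 libraries were analysed, 3 for each of WT and SKG NKT1, NKT2 and NKT17 cells. Whole-number read counts per gene symbol were deposited by the authors without normalisation. Per the authors, poly-A RNA was made into full-length cDNA by a method of the Smart-seq2 kind, tagmented with Tn5 and read as 50-base single ends, tRNA, rRNA, adapter and spike-in reads were discarded, the rest was aligned with TopHat 1.4.1, low-complexity reads were filtered out, and htseq-count counted in union mode. The submitters' processing notes also list Bowtie 1.0.0 and HTSeq 0.7.1. The build stated by the methods and those in the notes differ, so the build behind the counts is unsettled; coordinates here are those of GENCODE M1 on NCBIM37, and promoters those of RefSeq on GRCm38.p6. The annotation and strand setting of the counting are not given in the sources used here. Whether the reference sequences shown match those of the BALB/c mice was not tested. PCR copies count as reads, so limits drawn from counts cover counting error only.

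Columns were joined to samples by title and groups were read from the labels; 2 further columns belong to no sample listed and were not used, and 0 rows were without a gene name. In R 4.3.3, edgeR 4.0.16 kept 11118 genes by filterByExpr, scaled them by TMM (factors 0.928 to 1.07) and fitted 1 robust quasi-likelihood model to all 18 libraries (12 residual degrees of freedom). Tests were two-sided, with Benjamini-Hochberg adjustment over all genes tested in a comparison. Standard errors come from the fitted log2 change and its F statistic. The pipeline was tested on simulated data. A gene is given no fold where neither group reached 10 reads. Ratios within libraries were compared by exact permutation tests.

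The 8 genes are named in every comparison. From each other list (adaptors, phosphatases, kinases, ligands, cytokine receptors and factors, other lectin receptors, markers) up to 4 called genes with at least 20 CPM in the higher group are named, largest change first, for SKG against WT in NKT1 and for the WT NKT1 contrasts; Hcst, Tyrobp, Ptpn6 and H2-T23 are always named, and other markers where they move with a result. The 5 genes most like Klrd1 and Klrk1 were ranked by Pearson r. The genes, lists and tests were chosen with earlier results of these data known. Alternatives were DESeq2 1.42.0, 2 other scalings (RLE and upper quartile), a table without the filter or with means from 50 counts up, a threshold of 0.05 for the adjusted p, calls without a fold minimum, fits limited to the groups compared, a block by a token of the titles, and fits that each left out 1 library.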

Additional observations from a re-analysis of the deposited data

Results flagged for a closer look

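The effect of the SKG genotype on Klrk1 and Klrd1 differed between subsets by the test of the difference itself. For Klrk1 the log2 change in NKT17 exceeded that in NKT1 by 3.46 ± 0.56 (SE) and that in NKT2 by 5.34 ± 0.72 (edgeR adjusted p = 0.00399 and 0.00143), and all 3 SKG NKT17 libraries lay above all 3 WT ones. Both differences were called under each of the 21 alternatives run. For Klrd1 the corresponding differences were 4.03 ± 1.04 and 4.71 ± 1.10 (edgeR adjusted p = 0.0583 and 0.0544). Each Klrd1 difference was called in 15 of 21 alternatives. It rests on 4 reads over the WT NKT17 libraries, and the difference from NKT1 was no longer called without WT NKT17 replicates 1 or 2, SKG NKT17 replicates 1 or 2, or SKG NKT1 replicate 1 (adjusted p of 0.102 to 0.187), nor was the difference from NKT2 without WT NKT17 replicates 1, 2 or 3, SKG NKT17 replicate 1, or SKG NKT2 replicate 1 (0.102 to 0.185). Without WT NKT17 replicate 3 the Klrd1 differences were 5.1 and 5.79.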

How the results depend on the processing

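Of 835 alternative values for 54 results of single genes, 806 kept their direction and their side of the threshold, 25 lost a call, 3 gained one and 1 changed sign: the difference of the Klrd1 effect between NKT2 and NKT1, -0.67 with all libraries, was 0.12 without WT NKT2 replicate 1 and ran from -0.99 to 0.12 over fits without 1 library. In SKG against WT NKT1, Klre1, Klrc1 and Klrc2 were called under all 15 alternatives and Klrc3 under 14. The count of genes called in NKT2, 2 in the report, was 1 without the filter, with an adjusted p under 0.05 and with the title token as a replicate block, and 1 to 2 over fits without 1 library. In NKT17 it was 1, not 2, with an adjusted p under 0.05 and with only the libraries compared, where Klrd1 did not pass the filter, and 1 to 2 without 1 library. Both differences of the SKG effect from NKT17 gave 1, not 2, at an adjusted p under 0.05 and 1 to 2 without 1 library, and that between NKT2 and NKT1 gave 1, not 0, with DESeq2 and with only the libraries compared. The share of Klrc1 among Klrc1 and Klrc2 reads alone was 0.224 percentage points higher in SKG, not lower; without 1 library the difference over all Klrc reads was -3.6 to -1.46. The cause of these changes was not tested.

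The title token is shared by the subsets of a genotype, and what it marks is not stated. Some tokens cover libraries of both genotypes, while that of WT replicate 1 and that of SKG replicate 3 cover a single genotype. The token is thus partly confounded with genotype. Libraries of one genotype with the same token deviated together in part (r of -0.061 to 0.351, 12 of 18 pairs over 0.1). WT and SKG libraries of one subset with the same token did not (-0.151 to 0.090, 0 of 6 over 0.1), so WT and SKG samples were not treated as paired. The main fit did not pair the subsets of a genotype either, and the block by token is the alternative for that. With the token as a block, Klrc3 in NKT1 (log2 -1.25, adjusted p = 0.116) and Klrd1 in NKT2 (-1.11, adjusted p = 0.160) were not called, and the block changed no other call of these results. Reads shared between the Klrc genes, 3 libraries a group and levels of a few reads outside NKT1 limit these values. No results on protein were analysed here.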
